A study of Mus musculus with 4 samples.

Results

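Type B intercalated cells of the mouse kidney were described from single-cell RNA-Seq of 4 libraries, 1 per condition. A barcode was taken as a type B cell when it had 200 to 5000 detected genes, under 50% mitochondrial UMIs, at least 3 UMIs of Slc26a4 plus Hmx2 and more of these than of Slc4a1 plus Kit plus Aqp6, at least 3 UMIs of the proton pump subunit genes Atp6v1g3 plus Atp6v0d2, and under 10 UMIs of the proximal tubule genes Slc34a1 plus Lrp2 per 10000. UMIs are molecular identifiers, so that each one stands for 1 captured transcript. The rule found 669 cells among 34789 kept cells (1.92%), which were themselves drawn from 58660 barcodes. The libraries came from kidneys of male mice with the strain label C3H that were 18 weeks old at harvest and had received either normal diet (ND) or high-fat diet (HFD, 60% of calories from fat) for 8 weeks. WT mice had intact SGLT2, and SP mice (Sweet Pee, labelled as mutant) carry a missense mutation of Slc5a2 that removes the function of SGLT2, the glucose transporter of the early proximal tubule. The groups were WT on ND (WT-ND), WT on HFD (WT-HFD), SP on ND (SP-ND) and SP on HFD (SP-HFD), and values of the 4 libraries are given in this order unless stated otherwise. The number of mice behind each library is not stated in the sources used here, and the mutation is present in every cell of SP mice and so is not restricted to a cell type. Tissue was dissociated enzymatically before droplet capture, and no enrichment for intercalated cells is described.

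Intercalated cells are the acid-base cells of the connecting tubule and collecting duct, and all of them are rich in the vacuolar H+-ATPase. Type A cells secrete acid through an apical pump and return bicarbonate to the blood through the anion exchanger AE1, encoded by Slc4a1. Type B cells secrete bicarbonate in exchange for luminal chloride through pendrin, encoded by Slc26a4, and are known for base excretion and for chloride reabsorption. A further form, the non-A non-B cell, also carries pendrin but keeps the pump in the apical membrane. Transcript counts do not show where a protein sits, so the cells described here may include that form.

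Both genes that define the type B side of the rule had a TATAAA box shortly before a start site, and their upstream sequences are shown because these genes carry the identification of the cells. The sequences are the 250 bases before the annotated start, from RefSeq on GRCm38.p6, 5′ to 3′ on the strand of the gene, with the TATAAA letters in capitals. The Slc26a4 window lies at chr12:31559985-31560234 on the minus strand and the first Hmx2 window at chr7:131548507-131548756 on the plus strand.
Slc26a4: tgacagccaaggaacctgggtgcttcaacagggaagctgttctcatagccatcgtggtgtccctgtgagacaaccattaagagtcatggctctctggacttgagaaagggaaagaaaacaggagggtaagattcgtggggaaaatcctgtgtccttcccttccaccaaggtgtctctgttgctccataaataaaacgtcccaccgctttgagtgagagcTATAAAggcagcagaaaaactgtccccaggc
Hmx2: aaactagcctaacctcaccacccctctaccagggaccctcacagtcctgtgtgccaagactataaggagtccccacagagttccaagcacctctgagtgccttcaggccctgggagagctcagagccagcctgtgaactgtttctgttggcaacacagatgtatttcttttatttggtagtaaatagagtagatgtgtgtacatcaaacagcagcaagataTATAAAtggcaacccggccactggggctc
TATAAA starts 31 bases before the start of Slc26a4 and 29 bases before that of Hmx2. On the gene's own strand, 1.99% of 32851 promoter windows of this length hold TATAAA with its first letter between 40 and 20 bases before the start, and 12.4% hold it anywhere on either strand. The second Hmx2 start (chr7:131554043-131554292) and the neighbouring homeobox gene Hmx3 (chr7:131542713-131542962) have no TATAAA there. Hmx3 and Hmx2 thus lie next to each other on chromosome 7. Of 18 genes looked up, the windows of 13 are described here. Slc4a9 was set aside beforehand and its window is not reported here. The letters GTAAACA (3.17% of all windows, either strand) and CCGGTT (5.62%) were in none of the windows of these 13 genes, and CAAGTG (11.6%) was in that of Foxi1 alone. These matches describe letters in a window and were not tested as binding sites.

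In library order there were 196, 185, 120 and 168 type B cells. They made up 1.80% of kept cells in WT-ND (95% Clopper-Pearson interval 1.56 to 2.07), 1.91% under HFD in WT (1.64 to 2.20), 1.78% in SP-ND (1.48 to 2.12) and 2.25% under HFD in SP (1.93 to 2.61), and all 4 intervals overlapped. Under 30% mitochondrial UMIs the intervals of WT-ND (1.28 to 1.87) and SP-ND (0.756 to 1.41) lay below that of SP-HFD (1.91 to 2.75). Of the type A and type B cells together, type B cells made up 39.4%, 41.9%, 39.3% and 34.9%. Intervals of shares and levels cover counting error only, and with 1 library per condition no difference between conditions was tested. The type B cells of the 4 libraries held 2350136, 2076419, 1980339 and 2079543 UMIs. The median UMI count of a type B cell was 11252, 9917, 17324 and 12126.5, and the median mitochondrial share was 28.0%, 28.1%, 33.5% and 23.6%. SP-ND cells were therefore the deepest and had the highest mitochondrial share. No type B barcode was shared by 2 libraries, while 12 to 43 kept barcodes of all types were shared per pair of libraries.

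**Figure D1:**
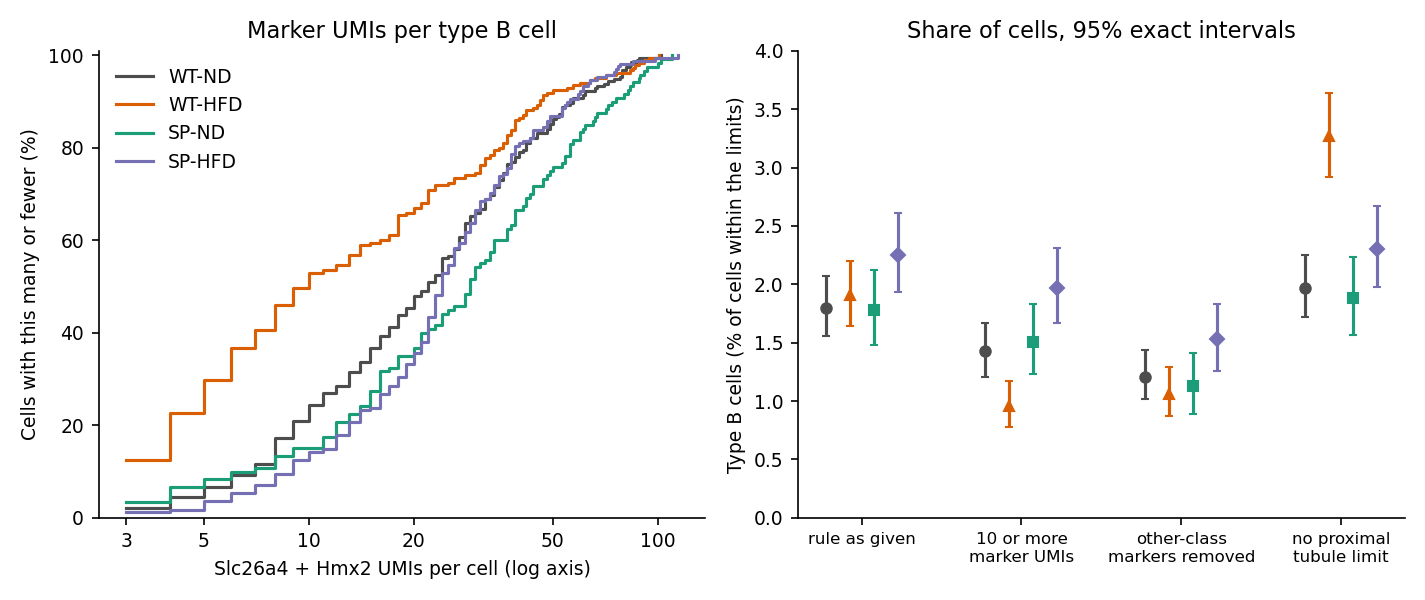
Left, the share of type B cells (vertical axis, %) with a given number or fewer of Slc26a4 plus Hmx2 UMIs per cell (horizontal log axis), 1 line per library. Right, type B cells as a percent of kept cells in each library under the rule and 3 other choices of cells, with 95% Clopper-Pearson intervals: the shares run from 1.78% to 2.25% under the rule, and WT-HFD moves from 0.959% with 10 or more marker UMIs to 3.27% without the proximal tubule limit.

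WT-HFD stood apart in how its type B cells met the rule. The median number of Slc26a4 plus Hmx2 UMIs was 10 in WT-HFD, against 22, 29 and 24 in the other libraries (WT-ND first). In WT-HFD, 23 cells had exactly 3 of these UMIs, the least the rule allows, and 47 barcodes that met every other condition had exactly 2. In the other 3 libraries 4, 4 and 2 cells were just inside the limit, and 10, 6 and 2 barcodes just outside it. The limit on proximal tubule genes removed 132 of 317 otherwise passing barcodes in WT-HFD (41.6%), against 18 of 214 for WT-ND (8.41%), 7 of 127 for SP-ND and 4 of 172 for SP-HFD. Of the cells kept in WT-HFD, 11 lay between 9 and 10 UMIs per 10000 of those genes and 8 more barcodes lay between 10 and 11. At the pump gene limit, 14 cells in all had exactly 3 UMIs and 23 otherwise passing barcodes had exactly 2. Diet ratios in WT that moved most are therefore also given for cells with at least 10 Slc26a4 plus Hmx2 UMIs, of which the libraries had 155, 93, 102 and 147. The share of type B cells in WT-HFD was 0.959% with those cells alone and 3.27% without the limit on proximal tubule genes, so that its place among the libraries depended on these limits. With those cells alone its interval (0.775 to 1.17) lay below that of SP-HFD (1.67 to 2.31).

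The genes of the rule were high by construction and are given as a description. Slc26a4 was at 1568, 1341, 1560 and 1654 CPM, that is, UMIs of the gene pooled over the type B cells of a library and scaled to a common total. Hmx2, a homeobox transcription factor, was at 709, 411, 552 and 671 CPM. Atp6v1g3, the intercalated-cell form of the pump's G subunit, was at 6164, 5775, 5319 and 6365 CPM, and Atp6v0d2, its d2 subunit, at 660, 629, 656 and 770 CPM. WT-HFD had the lowest level of Slc26a4, Hmx2 and Atp6v0d2, and SP-ND the lowest of Atp6v1g3. The genes of the type A side stayed low. Slc4a1 was at 31.1, 21.7, 47.5 and 15.4 CPM, the receptor tyrosine kinase gene Kit at 76.2, 22.2, 64.1 and 50.97 CPM, and the aquaporin gene Aqp6 at 34.9, 44.8, 54.5 and 57.2 CPM. No UMI of these 3 genes was found in 407 of the 669 cells (60.8%), and 111 cells had 3 or more.

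Of 5 type B genes outside the rule, Slc4a9, Insrr and Hmx3 fitted the label, with lower levels in WT-HFD, while Oxgr1 and Slc4a8 were not higher than in type A cells, as given with that comparison. Slc4a9 encodes AE4, a basolateral anion exchanger of type B cells, and was at 395, 340, 428 and 513 CPM. Insrr, the insulin receptor-related receptor that senses alkaline fluid, was at 248, 204, 247 and 281 CPM. Both genes were at most 3.26 CPM in endothelial cells of the same libraries, which should lack them. Endothelial cells were chosen with at most 1 UMI of the pump genes, so these low values were partly fixed by the choice. With every cell cut down at random to 1000 UMIs (thinned), the share of type B cells with a UMI of Slc4a9 was 28.1%, 26.5%, 30.0% and 39.3% (92.9%, 73.0%, 93.3% and 94.6% without thinning), against at most 0.315% of thinned endothelial cells. For Insrr the thinned share was 24.0%, 15.7%, 22.5% and 23.8% (86.7%, 69.7%, 86.7% and 95.2% without thinning), against at most 0.150% of endothelial cells. The median endothelial cell held 2894 to 4174 UMIs. Cells without any Slc4a9 UMI numbered 14 of 196 (7.14%), 50 of 185 (27.0%), 8 of 120 (6.67%) and 9 of 168 (5.36%). Hmx3 was at 9.79, 4.33, 13.1 and 8.66 CPM, far lower than its neighbour, but at 0 in type A cells of 3 libraries and in endothelial cells of all 4.

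The cells of a library differed widely in Slc26a4. In WT-ND, the middle 50% of type B cells had 9.12 to 21.9 Slc26a4 UMIs per 10000, around a median of 14.4. The other medians were 9.74 (quartiles 5.10 and 16.0), 13.2 (7.71 and 19.6) and 15.2 (9.90 and 22.6). Hmx2 had medians of 5.25, 2.56, 3.76 and 5.27 UMIs per 10000, and its cell with the most reached 57.3 in WT-ND and 37.3 in SP-HFD. Insrr had medians of 2.16, 1.54, 2.14 and 2.70. WT-HFD was lowest for each of these 3 genes. The rule sets a floor on the first 2 genes, and the spread of a single cell includes the sampling of its UMIs.

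Transcripts of other nephron cells were also present in type B cells. At least 5 UMIs in all of Aqp2, Slc12a1, Slc12a3, Pecam1, Ptprc and Col1a1 were carried by 244 of the 669 cells (64 of 196, 82 of 185, 44 of 120 and 54 of 168 by library). These genes mark different other classes, and the UMIs of a cell could come from more than 1 of them. Such cells are those described below as carrying genes of another class. A score against simulated doublets marked 57 type B cells, with 17, 14, 2 and 24 by library. Umod, the uromodulin gene of the thick ascending limb, had a UMI in 28.6%, 57.3%, 30.8% and 50.6% of type B cells after thinning, and in 17.3% to 23.6% of endothelial cells (85.2%, 94.6%, 90.8% and 95.2% against 44.0% to 54.8% without thinning). The parts that doublets and free RNA have in the results below were not tested. Values without doublets or without cells carrying genes of another class are given for some genes.

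**Figure D2:**
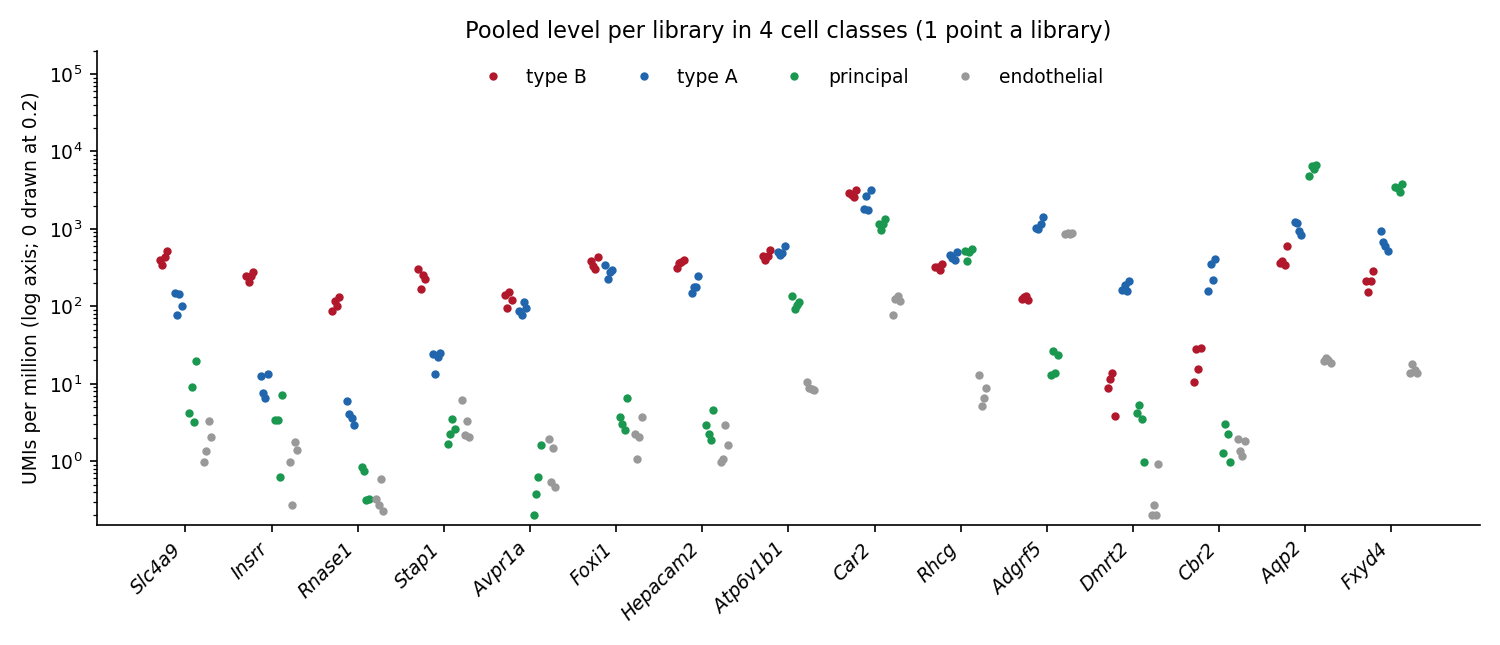
Levels of 15 genes (CPM, log axis, 0 drawn at 0.2) pooled over the type B, type A, principal and endothelial cells of each library, with 1 point per library. Insrr and Slc4a9 are higher in type B than in type A cells in each of the 4 libraries, and Cbr2 and Adgrf5 are lower.

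Type B cells were compared with the 1056 type A cells of the same 4 libraries, which were found by the same rule with its sides exchanged. UMIs were summed per library and cell type and fitted with edgeR's quasi-likelihood test with the library as a block, without the 9 genes of the rule. Because the cells were chosen by markers of this contrast, genes that go with those markers had to differ, so adjusted p-values (Benjamini-Hochberg) show only how alike the 4 libraries were. Of 10088 genes, 741 (7.35%) were higher in type B and 792 (7.85%) lower at an adjusted p of 0.05, and the median log2 difference over all genes was -0.00.

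The highest genes of type B cells joined a secreted ribonuclease, receptors and signalling proteins. Rnase1 was at 87.2, 118, 103 and 130 CPM in type B cells, against 5.95, 4.13, 3.67 and 2.98 CPM in type A cells (log2 difference 4.80 ± 0.16 SE). Insrr was at 12.7, 7.67, 6.52 and 13.4 CPM in type A cells, below every type B value above (4.64 ± 0.13, adjusted p = 2.54e-12). Stap1, a signal-transducing adaptor, was at 305, 169, 251 and 226 CPM in type B and at 24.6, 13.3, 22.0 and 25.3 CPM in type A cells (3.52). The groups did not overlap for any of these 3 genes. Igfbp5, an insulin-like growth factor binding protein, was at 610, 462, 993 and 375 CPM against 58.4, 130, 32.6 and 21.6 CPM (3.50 ± 0.33), and in endothelial cells it was higher still, at 2610.0 to 3443 CPM. The others by this order were Nbea (3.03), Emb, a chaperone of monocarboxylate transporters (2.93), Etnk1, an ethanolamine kinase (2.14), the acyl-CoA thioesterase gene Acot3 (2.11), the protease inhibitor gene Spink8 (2.05) and the Notch ligand gene Jag1 (2.02). Jag1 was at 161, 134, 138 and 196 CPM in type B and at 40.9, 45.1, 29.7 and 44.6 CPM in type A cells. Ank, a transporter linked to pyrophosphate export, differed by 4.97 but was under the mean level of 100 CPM set for this list, at 88.1, 67.9, 74.7 and 128 CPM against 4.84, 2.36, 2.85 and 2.23 CPM, and was chosen after its values were seen.

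The genes lowest in type B cells included the transporter gene Slc26a7 and the surface protein genes Adgrf5 and Mme. Slc26a7, an anion exchanger of type A cells, had 0, 1, 6 and 0 UMIs in type B cells, against 46.2, 148, 138 and 325 CPM in type A cells. Dmrt2, a transcription factor gene of type A cells, was at 8.94, 11.6, 13.6 and 3.85 CPM against 163, 191, 159 and 212 CPM (-4.19 ± 0.20). Adgrf5, an adhesion G protein-coupled receptor gene, was at 125, 131, 134 and 122 CPM against 1020.1, 1004, 1150.0 and 1409 CPM (-3.09 ± 0.12), with endothelial cells at 853 to 890 CPM. Mme, the membrane protease neprilysin, was at 108, 103, 113 and 89.0 CPM against 770, 709, 797 and 898 CPM (-2.88 ± 0.12). For these genes too no type B value reached a type A value. The rest of this end were 2610016A17Rik (-4.31), the carbonyl reductase gene Cbr2 (-3.71), the mucin gene Muc20 (-3.69), the small heat shock gene Cryab (-2.20), the stress-response gene Nupr1 (-2.12) and Slc35g1 (-2.07).

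**Figure D3:**
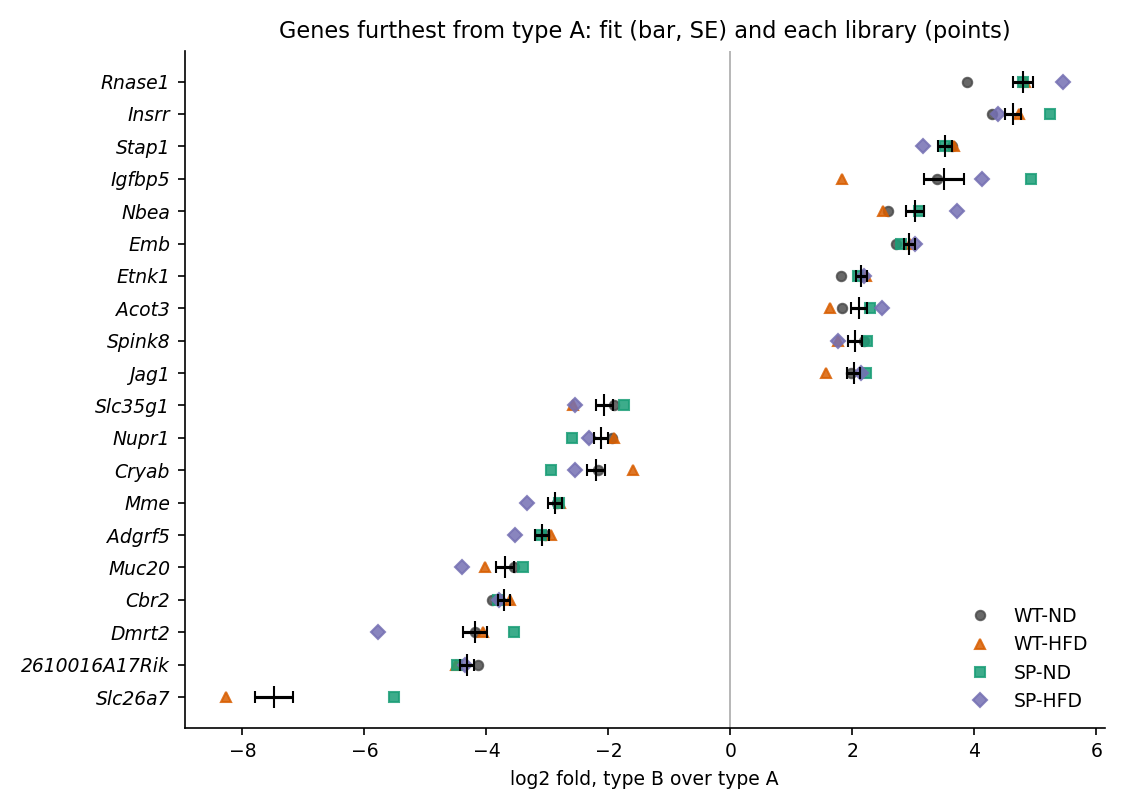
Log2 fold of type B over type A cells (horizontal axis) for the 10 genes highest and the 10 lowest in type B cells, 1 gene per row. Black marks are the fitted value with its SE and coloured points the 4 libraries, leaving out a library where either type is at 0 (Slc26a7 in WT-ND and SP-HFD). The genes were chosen to have 1 sign in every library, so all points of a row lie on the same side of 0.

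Among the lists of cell markers, 5 of 7 type B genes could be tested outside the rule, and 3 were higher, 1 lower and 1 not past the threshold (median 1.93, against -0.00 over all genes). Of all genes 7.35% were higher and 7.85% lower. Slc4a9 was higher by 1.93 ± 0.12 (adjusted p = 1.43e-08), with type A cells at 148, 77.0, 143 and 102 CPM, and Hmx3 was higher as well, with no fold given because type A cells of 3 libraries were at 0. Oxgr1, the receptor for alpha-ketoglutarate, was lower, at 283, 253, 235 and 282 CPM in type B against 377, 296, 367 and 359 CPM in type A cells (-0.34 ± 0.09, adjusted p = 0.0116), but without the SP-ND library the difference was -0.28 (adjusted p = 0.106). Slc4a8 did not pass the threshold, at 11.6 to 19.1 CPM in type B and 18.1 to 22.8 CPM in type A cells. Of the 4 type A genes that could be tested, Adgrf5, Dmrt2 and Slc26a7 were lower and the vasopressin receptor gene Avpr1a was higher, at 142, 96.3, 155 and 119 CPM in type B against 86.3, 77.3, 115 and 94.5 CPM in type A cells (0.51 ± 0.10, adjusted p = 0.00159). Avpr1a thus went the other way from its list, and it was at most 1.63 CPM in principal cells.

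Genes that intercalated cells share were split between the types. Of 13 tested, 5 were higher in type B, 3 lower and 5 not past the threshold (median 0.22), against 7.35% of all genes higher and 7.85% lower. The membrane-bound carbonic anhydrase gene Car12 was at 981, 739, 1024 and 1173 CPM in type B and at 295, 268, 262 and 370 CPM in type A cells (1.77 ± 0.10). Hepacam2, a cell adhesion gene of intercalated cells, was at 317, 360, 373 and 399 CPM against 147, 180, 179 and 249 CPM (1.02 ± 0.10). Foxi1, the transcription factor that intercalated cells need, was at 388, 331, 304 and 428 CPM against 343, 223, 276 and 299 CPM (0.41 ± 0.09, adjusted p = 0.00383), but without cells carrying genes of another class the difference was 0.13 (adjusted p = 0.503), and without the WT-HFD library it was 0.35 (adjusted p = 0.0538). The ammonia channel genes were lower, Rhcg at 324, 323, 297 and 356 CPM against 465, 421, 394 and 506 CPM (-0.39 ± 0.08) and Rhbg by -0.67 ± 0.11. Tfcp2l1, a transcription factor of intercalated cells, did not pass the threshold.

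The pump itself was expressed in both types, and most of its subunit genes did not pass the threshold. Of 21 subunit genes tested, 7 were higher in type B, 0 lower and 14 not past the threshold, and the median was 0.23 against -0.00 over all genes. Over all genes 7.35% were higher and 7.85% lower. Atp6ap2, an accessory subunit, was at 615, 619, 748 and 806 CPM against 420, 446, 460 and 595 CPM (0.60 ± 0.09). Atp6v1b1, the intercalated-cell form of the B subunit, was at 446, 396, 444 and 535 CPM against 505, 454, 491 and 597 CPM and did not pass the threshold (-0.11 ± 0.08, adjusted p = 0.446), although it did without cells carrying genes of another class (-0.36). Of 19 anion and sodium transport genes, 4 were higher and 5 lower. Fxyd2, the gamma subunit of the sodium pump, was higher, at 4519, 5420, 4327 and 4830 CPM against 2018, 3339, 1864 and 3553 CPM (0.94 ± 0.13). The basolateral anion exchanger gene Slc4a2 and the chloride channel subunit gene Bsnd were also higher (0.37 and 0.55).

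The carbonic anhydrases differed by form. Car15, a membrane-anchored form, was at 1505, 1715, 1279 and 1978 CPM in type B cells against 661, 426, 367 and 514 CPM in type A cells (1.80 ± 0.11). Car2, the cytosolic form, was at 2894, 2767, 2565 and 3173 CPM against 1827, 2651, 1780.4 and 3174 CPM and did not pass the threshold (0.37 ± 0.12, adjusted p = 0.0537). The types were close to each other on HFD in both genotypes and farther apart on ND, and without the SP-HFD library the difference was 0.51 (adjusted p = 0.00308). The 2 list counts that follow are to be read against 7.35% of all genes higher and 7.85% lower. Of 8 tested carbonic anhydrase and ammonia genes, 2 were higher and 3 lower (median 0.40). Of 21 hormone and WNK genes, 6 were higher and 6 lower (median -0.04). Among them, the calcium-sensing receptor gene Casr was higher by 0.92 and the kinase gene Wnk4 by 0.39. The principal cell genes of this list were lower, with Hsd11b2, which inactivates glucocorticoids, at 599, 334, 690 and 567 CPM against 1539, 513, 961 and 613 CPM, and the vasopressin receptor gene Avpr2 at 28.1, 20.2, 34.3 and 25.01 CPM against 85.2, 42.2, 73.8 and 29.5 CPM.

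Genes of fate choice, defence and stress gave smaller groups, to be read against 7.35% of all genes higher and 7.85% lower. Of 17 tested genes of cell fate and Notch signalling, 3 were higher (Foxi1, Hmx3 and Jag1), 3 lower (Dmrt2, Elf5 and Gata3) and 11 not past the threshold. Of 17 defence genes, 4 were higher and 5 lower. Spp1, which encodes osteopontin, was at 1818, 1685, 2057 and 1812 CPM in type B against 748, 751, 913 and 775 CPM in type A cells (1.27 ± 0.09), whereas the antimicrobial peptide gene Defb1 was at 804, 867, 1138 and 574 CPM against 2234, 2866, 2774 and 3049 CPM (-1.66). Of 27 immediate early and stress genes, 3 were higher (Atf3, Mt1 and Mt2) and 9 lower (median -0.27). Of 21 lipid and fasting genes, 4 were higher, among them the fatty acid binding protein gene Fabp3 and the kinase gene Pdk4, and 0 lower. Of 17 glycolysis genes, 0 were higher and 2 lower (Slc2a1 and Ldha), of 10 methionine cycle genes 2 were higher and 1 lower, and of 18 injury genes 4 were higher and 4 lower.

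Markers of other cells moved with this contrast, in which 7.35% of all genes were higher and 7.85% lower. Of 9 principal cell genes, 7 were lower in type B than in type A cells (median -0.98), and Aqp2, the water channel of principal cells, was at 359, 387, 341 and 603 CPM against 1242, 1191, 929.9 and 830.2 CPM. The summed principal cell list was at 1807, 1434, 1890 and 2192 CPM in type B and at 5145, 3260, 3531 and 2733 CPM in type A cells. Of 7 thick ascending limb genes, 4 were higher and 1 lower, and the summed list was at 973, 2480, 1001 and 2296 CPM in type B against 947, 1630, 1486 and 1103 CPM in type A cells, led by Umod. All 4 podocyte genes were lower, with a summed level of 3.03 to 78.5 CPM in type B cells. Of 11 proximal tubule genes, 1 (Gpx3, a secreted peroxidase gene) was higher. The part of these transcripts in the differences between the types was not tested.

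Against the 1584 principal cells, the water and sodium reabsorbing neighbours in the collecting duct, 2000 of 10273 genes were higher in type B cells (19.5%) and 2006 lower (19.5%). Principal cells were chosen for Aqp2 and Avpr2 and against the pump genes, so this contrast too was partly fixed by the choice. Avpr1a was at 0, 0.378, 0.634 and 1.63 CPM in principal cells (7.46 ± 0.25 higher in type B), Foxi1 at 3.78, 3.02, 2.54 and 6.52 CPM (6.54 ± 0.15) and Hepacam2 at 2.94, 2.27, 1.90 and 4.56 CPM (6.98 ± 0.17). Each was below every type B value by a wide margin. Rnase1 (7.60), Acot3 (6.66), Klkb1, which encodes plasma kallikrein (6.66), Stap1 (6.54), Dkk3, a Wnt regulator (6.39), Guca2a, which encodes guanylin (6.35), and Insrr (6.12) completed the 10 highest. Guca2a was at 392, 255, 307 and 328 CPM in type B cells and at 2.28 to 8.82 CPM in principal cells.

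Principal cell genes led the other end of that contrast. The water channel gene Aqp4 was at 1.70, 1.44, 9.09 and 3.85 CPM in type B cells and at 476, 251, 495 and 270 CPM in principal cells (-6.51). The genes at this end also included the sodium pump regulator gene Fxyd4 (-3.97), the prostaglandin receptor gene Ptger1 (-3.90), the growth factor gene Btc (-3.88), Arhgdib (-3.81), the matrix gene Npnt (-3.43), the peptide gene Apela (-3.23), the actin-binding gene Tmsb4x (-3.09) and Ranbp3l (-3.04). Of 13 shared intercalated genes, 12 were higher in type B cells and Rhcg alone was lower (-0.53 ± 0.09), and 15 of 21 pump genes were higher and 2 lower (median 1.21). All 7 principal cell genes tested were lower. Of 5 type B genes tested, Hmx3, Slc4a9, Insrr and Oxgr1 were higher and Slc4a8 was lower (median 5.62). These counts are to be read against 19.5% of all genes higher and 19.5% lower. Emb, Jag1, Spink8 and Car12 were above principal cells as they were above type A cells (5.21, 3.41, 1.76 and 4.17), while Spp1 was 0.55 above them.

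The effect of HFD was read from 1 pair of libraries per genotype, among genes that reached 100 CPM in type B cells of 1 library of the pair. In WT, 27 of 1270 genes (2.13%) were more than 2-fold higher on HFD and 10 (0.787%) more than 2-fold lower, with a median log2 ratio of 0.00. In SP, 23 of 1351 (1.7%) were higher and 11 (0.814%) lower, with a median of 0.19. The counting interval of the ratio lay above 0 for 28.3% of genes in WT and 47.7% in SP, and below 0 for 27.2% and 7.4%. The SP values depended on the scaling. With mitochondrial genes left out of the total, the SP median was 0.03 over the same genes, with intervals above 0 for 26% and below 0 for 18.7%, and 21 genes of 1999 that then reached 100 CPM were more than 2-fold higher and 18 lower. SP-ND cells had the higher mitochondrial share given above, whose part was not tested.

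Among 1208 genes measured in both genotypes, 10 passed 2-fold the same way in both and 0 passed it in opposite ways. Of these, 4 were lower on HFD (0.331%), and 3 of the 4 take part in calcium transport. S100g, which encodes calbindin-D9k, was at 6652 CPM on ND and 2031 on HFD in WT, and at 7399 and 1520 CPM in SP (log2 ratio -1.71, interval -1.76 to -1.66, and -2.28, interval -2.34 to -2.23). Calb1, which encodes calbindin-D28k, was at 605 and 250 CPM in WT and at 842 and 326 CPM in SP (-1.27 and -1.37). Slc8a1, the sodium-calcium exchanger gene, was at 626 and 291 CPM in WT and at 701 and 207 CPM in SP (-1.10 and -1.76). In WT, Slc8a1 no longer passed 2-fold among cells with at least 10 Slc26a4 plus Hmx2 UMIs (-0.59), without cells carrying genes of another class (-0.92) or under 30% mitochondrial UMIs (-0.99). Trpv5, the calcium entry channel gene, was at 28.9 and 10.1 CPM in WT and at 27.3 and 8.17 CPM in SP, under the 100 CPM limit. Each pooled ND value exceeded each HFD value for these 4 genes, across genotypes. S100g, Calb1 and Slc8a1 were chosen for passing 2-fold in both genotypes, so for them this order largely follows from the choice. The pooled levels were carried by a minority of cells, since the 10% of type B cells with the most UMIs held 48.3% to 63.9% of the S100g UMIs of a library and 58.1% to 72.8% of the Calb1 UMIs, against 26% to 37.4% for Slc4a9. The median cell in WT went the other way, from 4.82 S100g UMIs per 10000 on ND to 7.42 on HFD and from 0.765 to 1.04 for Calb1, whereas in SP the medians were lower on HFD (5.30 and 2.15 for S100g, 1.08 and 0 for Calb1). For Slc8a1 the medians were 1.36 and 0.725 in WT and 1.70 and 0 in SP. The same 3 genes were lower on HFD in the other classes as well, with S100g at -1.79 and -1.90 in type A, -1.88 and -2.02 in principal and -3.14 and -1.63 in endothelial cells, and Calb1 at -1.58 and -1.73 in type A cells. The lower pooled level was therefore not particular to type B cells, and the share that came from free RNA was not tested. The fourth gene was the mitochondrial mt-Atp8 (-1.19 and -1.11).

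The other 6 genes were higher on HFD in both genotypes (0.497%), and most were immediate early genes and thick ascending limb genes. Nr4a1, an orphan nuclear receptor gene of the immediate early response, was at 60.8 CPM on ND and 202 on HFD in WT, and at 47.5 and 112 CPM in SP (1.73, interval 1.45 to 2.01, and 1.23, 0.88 to 1.59). Ier3, a stress-induced gene, was at 160 and 361 CPM in WT and at 155 and 333 CPM in SP (1.17 and 1.11). Zfp36l2, an RNA-binding regulator of mRNA decay, was at 68.5 and 147 CPM in WT and at 54.0 and 126 CPM in SP (1.10 and 1.23). HFD values of the 3 genes exceeded all ND values. The genes were chosen for being more than 2-fold higher on HFD in both genotypes, so this order largely follows from the choice. Nr4a1 and Zfp36l2 reached 100 CPM on HFD only. For Ier3 and Zfp36l2 the ratio was 0.09 and 0.10 (Ier3) and 0.09 and 0.17 (Zfp36l2) in type A cells of WT and SP, and below 0 in endothelial cells of both, but in principal cells it was 0.25 and 0.56 (Ier3) and 0.28 and 0.34 (Zfp36l2). Nr4a1 was higher in type A (0.89 and 0.56) and principal cells (1.73 and 1.31) too, and in endothelial cells its ratio was 0.80 in WT and -1.11 in SP. A difference between cell types in these ratios was not tested. Among cells under 30% mitochondrial UMIs the WT ratios were 1.63, 1.10 and 1.32 for Nr4a1, Ier3 and Zfp36l2, and the SP ratios were 0.82, 0.57 and 0.94. In cells with at least 10 Slc26a4 plus Hmx2 UMIs the ratios were 2.06, 1.28 and 1.61 in WT and 1.24, 1.22 and 1.31 in SP. Ier3 left the set of both genotypes without the upper gene limit, without the proximal tubule limit or with mitochondrial genes left out of the total. Zfp36l2 left it without the proximal tubule limit or with the mean over cells in place of pooled levels.

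The wider list of immediate early and stress genes leaned the same way. In WT, 21 of 26 measured genes had an interval above 0 and 2 below (median 0.40), against 28.3% and 27.2% of all genes. In SP 18 of 23 had one above and 2 below (median 0.55), against 47.7% and 7.4% of all genes, and with mitochondrial genes left out of the total 16 were above and 3 below (median 0.38), against 26% and 18.7%. Jun, a subunit of AP-1, was at 877 and 1127 CPM in WT and at 534 and 877 CPM in SP. The heat shock gene Hspa1a was at 387 and 632 CPM in WT and at 230 and 457 CPM in SP, and the stress gene Gadd45b was at 89.8 and 137 CPM in WT and 49.99 and 135 CPM in SP. The metallothionein genes went the other way, Mt1 at 1368 and 741 CPM in WT and 1230 and 945 CPM in SP (-0.88 and -0.38). Mt2 was at 238 and 93.4 CPM in WT and 195 and 164 CPM in SP (-1.35 and -0.25). Fos was at 645 and 658 CPM in WT and 394 and 575 CPM in SP, so its WT values were close to each other.

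**Figure D4:**
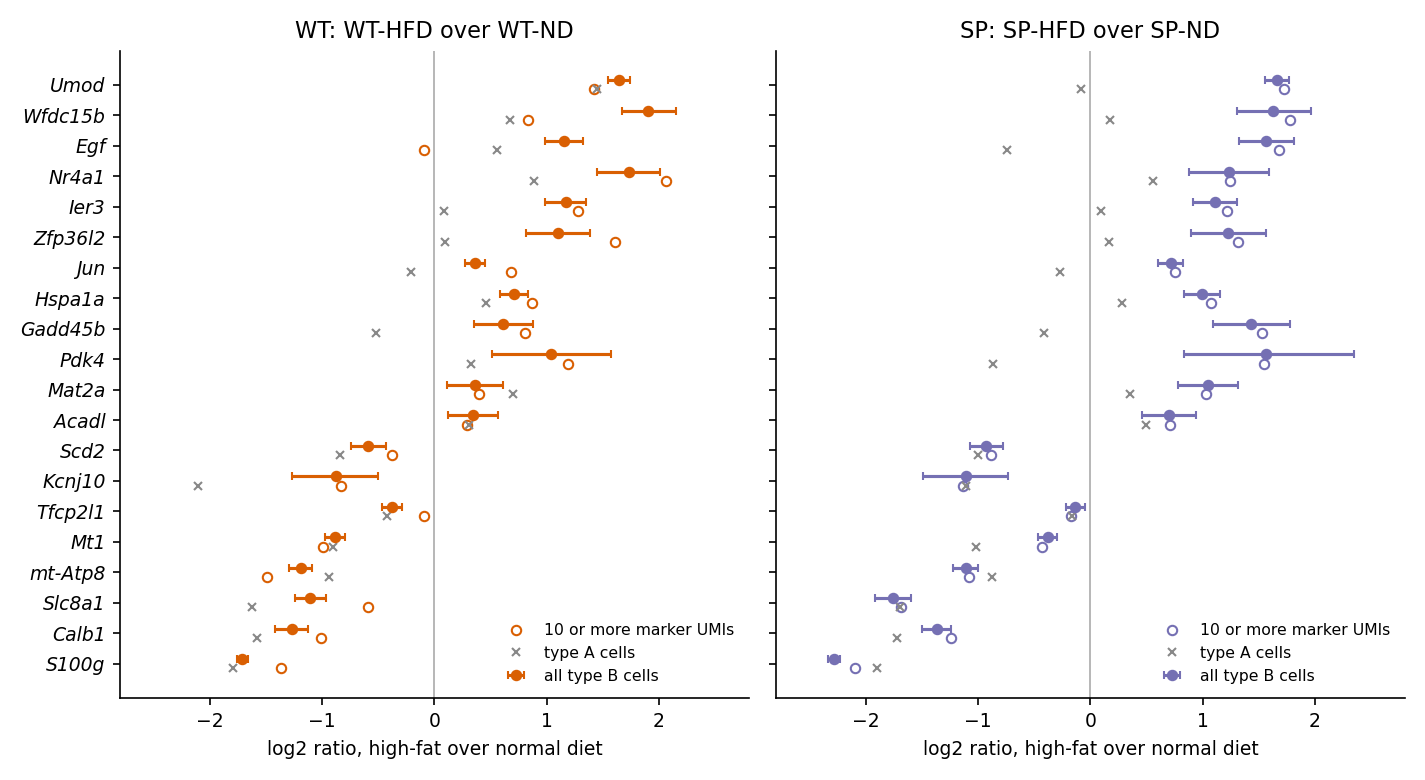
Log2 ratio of HFD to ND (horizontal axis) for 20 genes, 1 per row, in WT on the left and SP on the right. Filled points are all type B cells with 95% counting intervals, open points type B cells with 10 or more Slc26a4 plus Hmx2 UMIs and crosses type A cells; S100g, Calb1 and Slc8a1 lie below 0 in every set, and Egf in WT falls from 1.16 to -0.09 in the open point.

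The other 3 genes above 2-fold were those of the thick ascending limb and a whey acidic protein gene. Umod was at 502 and 1569 CPM in WT and at 486 and 1540 CPM in SP (1.64 and 1.66), Egf, the epidermal growth factor gene, at 181 and 404 CPM in WT and 94.4 and 280 CPM in SP, and Wfdc15b at 79.1 and 297 CPM in WT and 52.5 and 163 CPM in SP. Umod was also higher on HFD in WT type A (1.45), principal (1.54) and endothelial cells (0.99), but in SP its ratio was -0.09, -0.04 and -0.84 in these classes. Per cell, the median was 2.72 Umod UMIs per 10000 on ND and 10.0 on HFD in WT, and 3.13 and 5.11 in SP. Egf was no longer higher in WT among cells with at least 10 Slc26a4 plus Hmx2 UMIs (-0.09), and in SP its ratio was 0.20 without cells carrying genes of another class. Without doublets Egf was not among the genes past 2-fold in both genotypes. Wfdc15b was at 0.83 in WT among cells with at least 10 of these UMIs, and in SP at 0.12 without doublets and -0.19 without cells carrying genes of another class. Umod itself stayed between 1.20 and 1.72 in these sets. The source of the Umod transcripts was not tested.

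Genes of base secretion outside the rule had small ratios of HFD to ND. In WT, Slc4a9 and Insrr had ratios of -0.22 and -0.29, with intervals below 0, and among cells with at least 10 Slc26a4 plus Hmx2 UMIs they were at 0.04 and 0.00. In SP the ratios were 0.26 and 0.19, against a median of 0.19 over all genes. Foxi1 was at 388 and 331 CPM in WT and at 304 and 428 CPM in SP. Of 15 pump genes outside the rule that were measured in WT, 3 had an interval above 0 and 4 below (median -0.01), against 28.3% and 27.2% of all genes. Of 14 in SP all were above 0 (median 0.29, against 0.19 for all genes), against 47.7% of all genes. With mitochondrial genes left out of the total 7 of 14 were above 0 in SP (median 0.12, against 0.03), and the share of all genes with that total is given above. With at least 10 UMIs the WT list had 10 above and 0 below (median 0.16, against 0.08 over all genes in those cells). The shares of all genes with such intervals were not computed for those cells. Car15 was at 1505 and 1715 CPM in WT and at 1279 and 1978 CPM in SP (0.63).

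Of the lipid genes measured, 0 passed 2-fold in WT or SP, and of the methionine cycle genes 0 of 2 did in WT and 1 of 3 (Mat2a) in SP. Over all genes 2.13% were more than 2-fold higher and 0.787% lower in WT, and 1.7% and 0.814% in SP. With so few listed genes, these counts do not set the lists apart from all genes. Pdk4, which turns glucose oxidation down, was at 20.4 and 41.9 CPM in WT and at 10.6 and 31.3 CPM in SP, under the 100 CPM limit but higher on HFD in both. The desaturase gene Scd2 was at 388 and 258 CPM in WT and at 543 and 286 CPM in SP (-0.59 and -0.93). Of 9 lipid genes measured in WT, 4 had an interval above 0 and 2 below, and of 8 in SP 5 had one above and 1 below, against 28.3% and 27.2% of all genes in WT and 47.7% and 7.4% in SP. Mat2a, which makes S-adenosylmethionine, was at 111 and 142 CPM in WT and at 86.3 and 178 CPM in SP (0.36 and 1.05), and its ratios in principal cells were 1.61 and 1.57. In SP its ratio was 0.35 in type A and 0.23 in endothelial cells. Kcnj10, a basolateral potassium channel gene, had ratios of -0.88 and -1.11.

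The largest ratios of single pairs belonged to genes known from other cell types. In WT, immunoglobulin genes led: Igkc was at 17.9 CPM on ND and 2497 on HFD, Jchain at 4.68 and 439 and Igha at 18.3 and 1023. The gluconeogenic gene Pck1, at 30.2 and 301, and the antigen-presentation gene Cd74, at 32.8 and 271, came next. Among cells with at least 10 Slc26a4 plus Hmx2 UMIs the WT-HFD levels were 743 CPM for Igkc, 134 for Jchain, 352 for Igha, 52.1 for Cd74 and 82.1 for Pck1, and the ratios fell to 5.45, 4.60, 4.33, 0.92 and 1.45, so that Cd74 no longer passed 2-fold. Igkc and Jchain were high in other classes of WT-HFD as well, with Igkc at 1382 CPM in type A and 1565 in endothelial cells. They were not particular to WT, since Igkc was also higher on HFD in SP, at 1.51 and 94.7 CPM in type B cells, under the 100 CPM limit, and at 1709 CPM in principal and 2296 CPM in endothelial cells of SP-HFD. Beside S100g, Calb1 and mt-Atp8, the lowest in WT were Mt2 and Gm10076 (-1.34). In SP, the smooth muscle genes Tagln and Acta2 led among genes that reached 100 CPM, at 2.52 and 108 CPM and at 4.04 and 110 CPM, but 3 cells held 97.8% of the Acta2 UMIs of SP-HFD, and without doublets the ratios were -0.13 and -0.48. Rgs5 was at 75.7 and 264 CPM (1.80), and 1.87 without doublets. Next to S100g and Slc8a1, the lowest in SP were the sodium-chloride cotransporter gene Slc12a3, at 222 and 40.4 CPM, Clu (-1.45) and Igfbp5, at 993 and 375 CPM (-1.40, against -0.40 in WT). All 5 measured genes of the distal convoluted and connecting tubule list had intervals below 0 in SP, against 7.4% of all genes, and they were Slc12a3, S100g, Slc8a1 and Calb1, already named, and Klk1. In WT 3 of 6 measured genes of this list were above 0 and 3 below, with Slc12a3 at 0.47 and Klk1 at 0.25. Among cells with at least 10 Slc26a4 plus Hmx2 UMIs, Slc12a3 was at -0.34 and Klk1 at -0.03 in WT. Klk1 was at -0.01 in WT with the cell holding most of its UMIs left out of each library.

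On ND, few genes of type B cells differed by more than 2-fold between SP and WT. Of 1209 genes, 2 were more than 2-fold higher in SP (0.165%) and 7 lower (0.579%), with intervals above 0 for 7.78% and below 0 for 21.8% of genes (15.3% and 12.7% with mitochondrial genes left out of the total). The higher were the kallikrein gene Klk1, at 648 CPM in WT-ND and 2222 in SP-ND (1.78), and Sgk1, an aldosterone-induced kinase gene, at 61.3 and 136 CPM (1.15), which was at 0.01 without cells carrying genes of another class. The 10% of cells with the most UMIs held 85.8% of the Klk1 UMIs in WT-ND and 58.2% in SP-ND, and the median cell had 0 and 1.03 Klk1 UMIs per 10000. Klk1 was also higher in principal cells, at 1005 and 2251 CPM. Sgms2 (0.87), Slc12a1 (0.82) and Igfbp5 (0.70) followed. Of the 5 lowest, 4 were proximal tubule genes: Kap, at 1785 and 265 CPM (-2.75), Cyp4b1 (-1.84), Acsm2 (-1.69) and Slc27a2 (-1.58). Kap was lower to a like degree in type A (2165 and 393 CPM) and endothelial cells (4203 and 809.7 CPM). Of 20 immediate early and stress genes, 15 had an interval below 0 and 0 above (median -0.28, against -0.05 over all genes), and with mitochondrial genes left out of the total 13 were below and 0 above. SP-ND also had the highest mitochondrial share, whose part in this was not tested.

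On HFD, 2 of 1367 genes were more than 2-fold higher in SP than in WT (0.146%) and 26 lower (1.9%), with intervals above 0 for 41.7% and below 0 for 9.58% of genes (31.6% and 13.7% with mitochondrial genes left out of the total). Acta2 (2.16) and Tagln (1.90) were the higher pair, from the few SP-HFD cells named above, and without doublets they were at -3.20 and -3.76, and Rgs5 (1.00), Ccpg1 (0.94) and Ank (0.91) came next. The lowest were Igkc (-4.72), Jchain (-3.93), Igha (-3.76) and the proximal tubule genes Miox (-2.88) and Dnase1 (-2.87). In principal cells of the same libraries the immunoglobulin genes went the other way (2.30 for Igkc, 2.56 for Jchain and 1.97 for Igha), in endothelial cells they were at 0.55, 0.04 and -0.28, and in type A cells they were lower (-3.87, -3.87 and -3.15). In cells with at least 10 Slc26a4 plus Hmx2 UMIs 8 genes were lower, with Igkc, Jchain and Igha at -3.04, -2.32 and -2.31. Miox and Dnase1 were at -1.08 and -1.16 in those cells but under the 100 CPM limit, and so were not among the 8. Of 14 pump genes outside the rule 13 had an interval above 0 (median 0.29, against 0.15 over all genes). In the cells with at least 10 UMIs, however, 3 of 15 were above and 1 below (median 0.04, against 0.05 over all genes). Of 26 immediate early and stress genes, 16 had an interval below 0 and 3 above. In the cells with at least 10 UMIs, 18 of 25 were below and 2 above (median -0.46, against 0.05 over all genes). The shares of all genes with such intervals were not computed in those cells.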

How the data were processed

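Single-cell RNA-Seq of kidneys was deposited as UMI counts per gene and barcode for 4 libraries, 1 per condition, with 32285 genes each. The authors made the counts with Cell Ranger and deposited them as whole numbers without normalization, and they were used as deposited. The submitters' processing notes name Cell Ranger 2.1.1 and mm10, while the matrix headers name 6.1.2, and the annotation is not given in the sources used here. The study describes a correction for ambient RNA with SoupX, and whether the deposited counts carry it is not stated.

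The members and gene lists were chosen with earlier results of these data known. Kept barcodes had 200 to 5000 detected genes and a mitochondrial share under 50%, and the marker rules were applied to raw UMIs. Principal cells had at least 3 UMIs of Aqp2 plus Avpr2 and at most 1 pump UMI under the same limits. Endothelial cells had at least 5 UMIs of endothelial genes, at most 1 pump UMI and fewer than 3 UMIs of Aqp2 plus Avpr2, also under these limits. Levels are pooled CPM per library and type with exact Poisson 95% intervals, and ratios have exact conditional binomial intervals. Each library was 1 sample, so nothing was tested between conditions. For comparisons of cell types, UMIs were summed per library and type (8 sums, 3 residual degrees of freedom) and fitted with edgeR's quasi-likelihood test after TMM scaling and filterByExpr, with library as a block, since both sums of a library come from the same suspension. The libraries differ in genotype or diet and so come from different mice, but how many mice each holds is not stated, and p-values measure only the spread between these libraries. Genes were named by list, or as the 10 largest and 10 smallest differences past the threshold with 1 sign in every library and a mean of at least 100 CPM in 1 type, the 5 largest and 5 smallest ratios per pair of libraries, and those past 2-fold in both genotypes. A few genes that met this rule or stood in a list are not reported here.

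Shares were also computed after thinning each cell to 1000 UMIs. Doublets were scored by the share of simulated doublets among 50 neighbours in 30 components of 2000 genes, and 0.8% per 1000 cells were marked. In simulated counts the test found 92% and 100% of genes changed by a log2 fold of 1 and 2 between type B and type A cells (10088 genes), and 78% and 99% against principal cells (10273 genes), while 6.34% and 8.29% of the calls in the 2 comparisons were of unchanged genes. The simulated counts held far fewer changed genes than the data called, no library effect beyond depth and no choice of cells by markers. These percentages therefore need not hold for the calls above. Alternatives were other limits on mitochondrial UMIs, depth, marker UMIs and genes, doublets or cells with other-class genes removed, 10% of each total subtracted as the mean profile of kept cells, other scalings, filters and tools (DESeq2), and each library left out. Software was numpy 2.4.6, pandas 2.3.3, scipy 1.17.1, scikit-learn 1.9.0, Python 3.11.15, matplotlib 3.10.9, R 4.3.3, edgeR 4.0.16, limma 3.58.1 and DESeq2 1.42.0. Promoter sequences are from RefSeq on GRCm38.p6.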

Additional observations from a re-analysis of the deposited data

Results flagged for a closer look

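Barcodes that met the marker counts but were left out by a limit also held transcripts of type B genes outside the rule, and they entered only the alternatives that lift a limit. The limit on proximal tubule genes left out 161 barcodes, with 18, 132, 7 and 4 by library (WT-ND first, then WT-HFD). In these Slc4a9 was at 182, 55.5, 111 and 311 CPM and the proximal tubule gene Kap at 26853, 26164, 8785 and 31372 CPM, against 1785, 3222, 265 and 571 CPM of Kap in the kept cells.

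The mitochondrial limit left out 108 barcodes (35, 18, 29 and 26 in the same order). They held Slc4a9 at 369, 384, 446 and 307 CPM and Insrr at 247, 235, 341 and 181 CPM, against 395, 340, 428 and 513 CPM of Slc4a9 and 248, 204, 247 and 281 CPM of Insrr in the kept cells, and the pump subunit gene Atp6v1g3 at 776, 1245, 939.6 and 2202 CPM, against 6164, 5775, 5319 and 6365 CPM in the kept cells. A further 113 barcodes (31, 16, 53 and 13) had over 5000 detected genes, with Slc4a9 at 361, 291, 343 and 390.5 CPM and median UMI counts of 28991, 27639, 29105 and 26603. Their parts in the results were tested only as far as the alternative limits below show.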

How the results depend on the processing

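The shares of type B cells depended on the limits. Under 30% mitochondrial UMIs the share was 1.55% in WT-ND and 1.05% in SP-ND, and with at least 1000 UMIs 2.21% in WT-ND. WT-HFD moved from 1.91% to 2.39% with at least 2 marker UMIs (Slc26a4 plus Hmx2), 1.47% with at least 5, 0.959% with at least 10 (WT-ND 1.43%) and 3.27% without the proximal tubule limit, and SP-ND to 2.45% without the upper gene limit. SP-HFD was at 2.3% under 30% mitochondrial UMIs and 1.97% with at least 10 marker UMIs. Without cells carrying other-class genes the shares were 1.21%, 1.06%, 1.13% and 1.53% by library.

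Counts of genes past 2-fold moved most with the minimum level. For HFD in WT they were 56 higher and 18 lower at 50 CPM and 2098 and 1527 with no minimum, for HFD in SP 44 higher at 50 CPM and 1730 and 1601 with none, for SP on ND 16 lower and 1540 and 1650, and for SP on HFD 7 and 57 and 1499 and 2109. For HFD in WT there were 16 lower under 30% mitochondrial UMIs, 16 higher with at least 10 marker UMIs, 70 and 23 without the proximal tubule limit, 20 lower without the gene limit and 46 higher with the mean over cells. For HFD in SP there were 13 higher under 30% mitochondrial UMIs, 10 higher without the gene limit and 18 lower with mitochondrial genes left out of the total. For SP on ND, 6 were higher under 30% mitochondrial UMIs, 4 without doublets and 1 without other-class cells, and 13 were lower without the proximal tubule limit and 3 without the gene limit. For SP on HFD, 4 were higher with at least 2 marker UMIs, 4 without other-class cells, 4 without mitochondrial genes in the total and 1 without the top cell, 8 were lower with at least 10 marker UMIs, and there were 19 and 79 without the proximal tubule limit and 7 and 42 with the mean over cells. The cause was not tested.

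Some ratios changed sign, large ones among them. In WT, Atp6v1g3 was at 0.05 under 30% mitochondrial UMIs, 0.01 with at least 5 and 0.09 with at least 10 marker UMIs and 0.12 without the gene limit, and Car2 at 0.03, 0.04, 0.16 and 0.11, and 0.01 without other-class cells. With at least 10 marker UMIs Egf was at -0.09, Slc26a4, which that choice itself uses, at 0.01, Slc4a9 at 0.04 and Foxi1 at 0.08. Car15 was at -0.17 without the proximal tubule limit and -0.07 with the mean over cells. In SP, Hmx2 was at -0.12 and Gata2 at -0.01 under 30% mitochondrial UMIs, Tagln at -0.13 and Acta2 at -0.48 without doublets, Wfdc15b at -0.19 without other-class cells and Slc26a4 at -0.08 with mitochondrial genes left out of the total. For SP on HFD, Acta2 was at -3.20 and Tagln at -3.76 without doublets, and with at least 10 marker UMIs Slc26a4 was at -0.00, Foxi1 at -0.02, Atp6v1g3 at -0.15 and Car15 at -0.10. The pooled levels of S100g and Calb1 stayed past 2-fold lower in both genotypes in each of these sets of cells, although the median cell in WT was higher on HFD, whereas Slc8a1 in WT was at -0.99 under 30% mitochondrial UMIs, -0.92 without other-class cells and -0.59 with at least 10 marker UMIs, and mt-Atp8 did not pass in both genotypes under 30% mitochondrial UMIs or without the gene limit.

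Against type A cells, DESeq2 called 353 genes higher and 347 lower, and cells thinned to 1000 UMIs gave 136 and 93. Against principal cells DESeq2 called 1251 and 1310 and thinned cells gave 516 and 502. Without the library block, which pairs the 2 sums of a library, the counts against type A cells were 415 and 422. Leaving out each library in turn gave 546 to 702 higher and 564 to 701 lower against type A cells, and 1596 to 1963 and 1649 to 2035 against principal cells. No paired analysis was run between conditions, each of which has 1 library. Genes with few UMIs in 120 to 196 cells could not be measured closely, and the intervals cover counting error only.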
